A study of Mus musculus with 158 samples.

Results

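The hairpins described here target 3 mouse genes of ribosome production, Znrd1, Utp20 and Pak1ip1. They were every hairpin whose listed target was one of those genes, which gave 3 hairpins a gene and 9 of the 1000 targeting hairpins in all. Short hairpin RNAs lower the mRNA of the gene they match, and in a pooled screen the abundance of each hairpin in genomic DNA follows the cells that carry it. The 1000 hairpins covered 285 genes and were split over 19 pools, each with 8 control hairpins. No hairpin sequence was used here, so hairpins are named by their library identifiers.

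Every group shared the cells: PDA530 Met, a mouse pancreatic adenocarcinoma line from a liver metastasis. The labels used here give no genotype of the line and no strain or age of the mice. Cells were infected at a multiplicity of infection of 0.3, so that most infected cells would hold a single hairpin, and selected with puromycin at 3 µg/ml for 4 days. The first group was pelleted then (day 0), the second was kept in culture for 28 days, and the third was lung tumours taken 28 days after injection into the tail vein, with all tumours of a mouse combined into 1 sample. Day 0 libraries are not stated to come from separate infections, so p-values measure only the spread between these samples, which may be technical.

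Ribosomes are built in the nucleolus, where RNA polymerase I transcribes the long precursor of the ribosomal RNAs. The precursor is folded, modified and cleaved by large assemblies, among them the small-subunit processome, while other factors mature the large subunit. Growing cells depend on this output, and tumour cells often raise it. Znrd1 encodes the polymerase I subunit also called Rpa12, which helps the enzyme cleave RNA that has stalled in it. Utp20 encodes a large scaffold protein of the small-subunit processome, needed to make 18S ribosomal RNA, and its human counterpart was also named for being down-regulated in metastasis. Pak1ip1 encodes a nucleolar WD-repeat protein of large-subunit maturation that also binds and inhibits the kinase Pak1.

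The 9 hairpins lay in 4 pools: Znrd1 TRCN0000084728 in pool 11 with 52 targeting hairpins, the 3 of Pak1ip1 in pool 12 with 53, Znrd1 TRCN0000304415 and TRCN0000316014 in pool 18 with 53, and the 3 of Utp20 in pool 19 with 52. These pools gave 34 libraries of 3370297 to 9265654 reads, of which 1925934 to 6924840 came from the pool's own targeting hairpins. Culture libraries of pools 18 and 19 were shared, apart from culture D, of pool 19 alone, and those of pool 11 were shared with pool 10. Levels are given as CPM, reads of a hairpin scaled to 1000000 reads of its pool's targeting hairpins, after trimmed mean (TMM) scaling over the pool's libraries. A level is therefore relative to the rest of the pool, and levels of different hairpins are not compared. Member hairpins had from 314 to 132617 reads, and all 9 passed the minimum mean of 10 reads in every comparison. The lowest, Utp20 TRCN0000341514 in lung library B, was 0.00785% of the pool's reads (95% exact binomial interval 0.00701 to 0.00877), an interval that covers counting error only because PCR reads carried no molecular identifiers.

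Differences between groups are log2 differences of CPM + 1 from limma, each with its standard error (SE) and a p-value adjusted by Benjamini-Hochberg over all targeting hairpins of all pools, and called under 0.05. From day 0 to culture, 4 of the 9 hairpins fell and 1 rose, where 60.6% of all 945 hairpins tested were called (28.8% higher and 31.9% lower). From day 0 to lungs 1 rose and 1 fell, where 33.8% of 891 were called (14.7% higher and 19.1% lower). Lungs were above culture for 2 and below it for 0, where 24.9% of 889 were called (11.6% higher and 13.3% lower). The median difference of the 9 was -0.53 for culture, -0.35 for lungs and 0.25 for lungs against culture, beside -0.10, -0.13 and -0.11 over all hairpins. The libraries of the groups did not overlap for 5 of the 9 between culture and day 0, 4 between lungs and day 0 and 3 between lungs and culture, where this held for 67.7%, 56.1% and 41.7% of all hairpins. In each comparison the members' calls were near or below the background share, so the counts set the 3 genes apart in none, and the values below are those of single hairpins. The comparisons share samples: day 0 libraries enter the first 2, and lungs and culture libraries each enter 2. On simulated data both comparisons with lungs made more false calls than the threshold allows, so their adjusted p-values near 0.05 understate the error.

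Among the hairpins of the 3 genes, Pak1ip1 TRCN0000009759 had the widest log2 difference between lungs and culture (3.97). The median over a gene's hairpins was smaller in size for Pak1ip1 (1.24) than for Utp20 (-1.44) and Znrd1 (-1.52). Pak1ip1 hairpin TRCN0000009759 fell in culture and rose in lungs, and TRCN0000009760 fell in culture and stood above culture in lungs. The third, TRCN0000009758, passed the test in none of the 3 comparisons.

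Hairpin TRCN0000009759 was at 5484, 4788 and 5997 CPM in day 0 libraries A, B and C. It was at 557, 920 and 1364 CPM in the 3 cultures, and at 9275, 13743 and 16412 CPM in the 3 lungs. No library of one group overlapped another group: every culture lay below every day 0 pellet, and every lung above it. The mean fell from 5423 ± 607 CPM (SD, n = 3) to 947 ± 404 CPM (SD, n = 3) in culture, 5.73-fold lower, with a log2 difference of -2.60 (SE 0.39, adjusted p = 1.3e-05). That was the second lowest of the 53 hairpins of the pool, and its rank by reads went from 43 to 44 of 53 at day 0 to 46 to 51 in culture, 1 being the most abundant. In lungs the mean was 13143 ± 3606 CPM (SD, n = 3), with a log2 difference from day 0 of 1.22 (SE 0.34, adjusted p = 0.0213), the third highest of the pool, and ranks of 22 to 29. Lungs exceeded culture 13.9-fold, with a log2 difference of 3.97 (SE 0.49, adjusted p = 0.000179), the highest of the 53. The rise from day 0 to lungs lost its call without any 1 of the 3 day 0 libraries (adjusted p = 0.108, 0.114 and 0.12) and with the replicate letter as a block (0.0584), whereas the fall in culture and the gap between lungs and culture were called without any 1 of the 6 libraries.

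Hairpin TRCN0000009760 was at 9029, 9444 and 10620 CPM at day 0, at 4923, 2839 and 3174 CPM in culture and at 7342, 5929.6 and 10444 CPM in lungs. The cultures lay below every other library, while lungs and day 0 overlapped. Its fall in culture was 2.66-fold in mean CPM, with a log2 difference of -1.45 (SE 0.26, adjusted p = 8.51e-05), the seventh lowest of the pool. Lungs stood 2.17-fold above culture, with a log2 difference of 1.24 (SE 0.40, adjusted p = 0.0425). That gap was called without 2 of the 6 libraries in turn. It was lost without lung library A (adjusted p = 0.0554), lung library C (0.0904), culture B (0.187) or culture C (0.107), and with scaling by the control hairpins (0.0608). From day 0 to lungs the log2 difference was -0.35 (SE 0.35, adjusted p = 0.453, 95% interval -1.12 to 0.41).

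Hairpin TRCN0000009758 was at 14991, 16208 and 16111 CPM at day 0 and at 17461, 16706 and 15828 CPM in culture. These ranges overlapped, and the log2 difference was 0.079 (SE 0.12, adjusted p = 0.583, 95% interval -0.17 to 0.33). Its spread over the cultures was among the smallest of the pool, 0.071 in SD of log2 CPM beside a pool median of 0.27. With scaling by the pool's total reads the difference became -0.43 (adjusted p = 0.00623), and on the deposited values -0.33 (adjusted p = 0.0255), so its direction in culture turned with the scaling. Lungs held 19094, 29393 and 20277 CPM, all above day 0 and culture, with log2 differences of 0.49 (SE 0.24, adjusted p = 0.131) and 0.56 (SE 0.31, adjusted p = 0.215) that did not pass. The rise from day 0 was called with scaling by the control hairpins (0.91, adjusted p = 0.0301) and without lung A (0.61, adjusted p = 0.0467).

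A ratio of 2 hairpins in 1 library does not depend on how the library is scaled, so the log2 ratios were compared between groups. For TRCN0000009758 over TRCN0000009759 the log2 ratio was 1.55 ± 0.19 (SD, n = 3) at day 0, 4.23 ± 0.72 (SD, n = 3) in culture and 0.81 ± 0.44 (SD, n = 3) in lungs. By limma fitted over all such pairs, it rose by 2.68 in culture (SE 0.36, adjusted p = 0.0012) and was 3.41 lower in lungs than in culture (difference -3.41, SE 0.49, adjusted p = 0.003). For TRCN0000009758 over TRCN0000009760 it rose by 1.53 in culture (SE 0.22, adjusted p = 0.00139). For TRCN0000009759 over TRCN0000009760 it was higher in lungs by 1.58 than at day 0 (SE 0.34, adjusted p = 0.0142) and by 2.73 than in culture (SE 0.57, adjusted p = 0.0125). The other 4 of the 9 Pak1ip1 ratio comparisons did not pass. These were TRCN0000009758 over TRCN0000009759 between lungs and day 0 (-0.73, adjusted p = 0.154), TRCN0000009758 over TRCN0000009760 between lungs and day 0 (0.84, 0.164) and between lungs and culture (-0.69, 0.314), and TRCN0000009759 over TRCN0000009760 between culture and day 0 (-1.15, 0.0818).

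Utp20 hairpins had lower mean levels than day 0 in both later groups. In culture TRCN0000341514 and TRCN0000341529 fell, and in lungs TRCN0000341514 fell. All 3 hairpins had a negative log2 difference in both comparisons, and that of TRCN0000341600 did not pass in either.

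Hairpin TRCN0000341514 was at 2492, 2059 and 4529 CPM in day 0 libraries A, B and D. It was at 350.0, 422 and 1377 CPM in the 3 cultures shared with pool 18 and at 994 CPM in culture D. The lungs of libraries A, B and D held 202, 69.7 and 1141 CPM. Every culture and every lung lay below every day 0 library, while lungs and cultures overlapped. The fall in culture was 3.85-fold in mean CPM, with a log2 difference of -2.09 (SE 0.61, adjusted p = 0.0134), the fourth lowest of the 52 hairpins. In lungs the mean went from 3027 ± 1319 CPM (SD, n = 3) to 471 ± 584 CPM (SD, n = 3), 6.43-fold lower, with a log2 difference of -3.49 (SE 1.05, adjusted p = 0.0462), the second lowest of the pool. The lung call was lost with edgeR's quasi-likelihood test (log2 difference -2.68, adjusted p = 0.116). It was also lost without lung A (0.0923), lung B (0.0616), day 0 A (0.0839), day 0 B (0.121) or day 0 D (0.146), and kept without lung D (-4.74, adjusted p = 0.00133). The culture call was lost without day 0 D (-1.75, adjusted p = 0.0694) and with all 3 groups in 1 fit (-2.09, adjusted p = 0.097).

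Hairpin TRCN0000341529 was at 2486, 2469 and 4461 CPM at day 0 and at 2376, 1248, 1092 and 1019 CPM in culture. The groups did not overlap, although the highest culture, library A, was just under the lowest day 0 libraries. Its log2 difference in culture was -1.16 (SE 0.45, adjusted p = 0.0478). That call was kept without 1 of the 7 libraries, culture A (adjusted p = 0.00962), and lost without any of the other 6 (0.0604 to 0.224), with edgeR's quasi-likelihood test (0.0579), with all 3 groups in 1 fit (0.203) and with the replicate letter as a block (0.122). The lungs held 2732, 536 and 3013 CPM, overlapping day 0, with a log2 difference of -0.88 (SE 0.74, adjusted p = 0.404, 95% interval -2.68 to 0.93).

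Hairpin TRCN0000341600 was at 5326, 4853 and 6637 CPM at day 0 and at 2978, 5122, 4881 and 2909 CPM in culture. These overlapped, and the log2 difference was -0.53 (SE 0.31, adjusted p = 0.154). The fall in culture was called, and was larger, with scaling by the pool's total reads (-1.11, adjusted p = 0.0248), on the deposited values (-1.56, adjusted p = 0.0101) and with scaling by the control hairpins (-1.52, adjusted p = 0.0112). The lungs held 1225, 317 and 5228 CPM, of which the first 2 lay below every day 0 and culture library. The log2 difference from day 0 was -2.13 (SE 0.98, adjusted p = 0.143, 95% interval -4.52 to 0.26), the sixth lowest of the pool. Without lung D it was -3.32 (adjusted p = 0.00234), and with all 3 groups in 1 fit it was called at -2.13 (adjusted p = 0.0439).

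Lung library B was the lowest and lung library D the highest for all 3 Utp20 hairpins, and day 0 library D was the highest day 0 library for all 3. The spread of the lungs was wide, with SDs of log2 CPM of 2.03 for TRCN0000341514, 1.40 for TRCN0000341529 and 2.02 for TRCN0000341600, beside a pool median of 0.90. At day 0 the SDs of TRCN0000341514 and TRCN0000341529 were 0.59 and 0.49, ranks 4 and 5 of 52 from the largest, beside a pool median of 0.16. Whether library D differs in how it was made was not tested. Between lungs and culture none of the 3 passed, with log2 differences of -1.44 (adjusted p = 0.364), 0.25 (0.853) and -1.63 (0.192), in the same order. Without lung D, TRCN0000341600 was lower in lungs than in culture (-2.68, SE 0.81, adjusted p = 0.0353). Relative to TRCN0000341529, TRCN0000341514 was lower in lungs than at day 0, the log2 ratio going from -0.079 ± 0.16 (SD, n = 3) at day 0 to -2.69 ± 1.19 (SD, n = 3), a difference of -2.61 (SE 0.67, limma adjusted p = 0.0333). The other 8 Utp20 ratio comparisons did not pass, among them the same pair between culture and day 0 (-0.93, adjusted p = 0.319) and between lungs and culture (-1.69, adjusted p = 0.233).

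Of the Znrd1 hairpins, TRCN0000084728 rose in culture, and neither hairpin of pool 18 passed there. In lungs no Znrd1 hairpin passed with all libraries in the limma fit, but the ratio of the pool 18 hairpins did.

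Hairpin TRCN0000084728 was at 5638, 5020.4 and 5702 CPM at day 0 and at 15542, 9669 and 13669 CPM in culture, with every culture above every day 0 library. The mean rose from 5454 ± 376 CPM (SD, n = 3) to 12960.2 ± 3000.02 CPM (SD, n = 3), 2.38-fold, with a log2 difference of 1.52 (SE 0.16, adjusted p = 1.29e-15), the eighth highest of 52. In pool 11 limma gave this hairpin the spread of the pool's trend, so its p rests on the pool's common spread more than on its own. With all 3 groups in 1 fit the difference was 1.22 (adjusted p = 0.293). In lungs A, B and C the hairpin was at 922, 5209 and 22522 CPM: lung A lay below every day 0 library, lung B among them and lung C above every culture. Its ranks by reads in those lungs were 50, 34 and 11 of 52. This 24.4-fold range gave an SD of log2 CPM of 2.31, the largest of the 52 hairpins, beside a pool median of 0.54. The log2 difference between lungs and day 0 was -0.19 (SE 1.11, adjusted p = 0.916, 95% interval -2.91 to 2.52), and its sign turned with edgeR (0.81) and without lung A (1.10). Lungs against culture gave -1.63 (SE 1.15, adjusted p = 0.343), which ranged from -2.75 to -0.24 without each library and was called without lung C (-2.75, adjusted p = 0.0264).

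Hairpin TRCN0000304415 was at 4611, 5771 and 4075 CPM at day 0, at 3301, 6154 and 7465 CPM in culture and at 7243, 18285 and 8199 CPM in lungs. Every lung lay above every day 0 library, and lung A was below the highest culture. The log2 difference between lungs and day 0 was 1.00 (SE 0.43, adjusted p = 0.11, 95% interval 0.0014 to 2.00), which did not pass. It was called with DESeq2 (1.05, adjusted p = 0.0188) and without lung A (1.31, adjusted p = 0.0428). It was 0.16 (SE 0.34, adjusted p = 0.709) in culture and turned to -0.12 with scaling by the pool's total reads.

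Hairpin TRCN0000316014 was at 8376, 10990.2 and 9366 CPM at day 0, at 9530.2, 12723 and 11319 CPM in culture and at 3913, 10699 and 1465 CPM in lungs. Lung B lay within the day 0 range and lungs A and C below it. The log2 difference between lungs and day 0 was -1.38 (SE 0.65, adjusted p = 0.141), and -2.08 (adjusted p = 0.00601) without lung B. Between lungs and culture it was -1.52 (SE 0.66, adjusted p = 0.14), and -1.98 (adjusted p = 0.0268) without lung B. In culture it was 0.22 (SE 0.17, adjusted p = 0.298, 95% interval -0.19 to 0.63), and -0.062 with scaling by the pool's total reads. DESeq2 called it higher in culture (0.32, adjusted p = 0.0421).

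The log2 ratio of TRCN0000304415 over TRCN0000316014 was -0.997 ± 0.179 (SD, n = 3) at day 0, -1.06 ± 0.46 (SD, n = 3) in culture and 1.38 ± 0.96 (SD, n = 3) in lungs. The ratio was higher in lungs, by 2.38 than at day 0 (SE 0.56, limma adjusted p = 0.025) and by 2.44 than in culture (SE 0.64, adjusted p = 0.0397). Between culture and day 0 it differed by -0.062 (SE 0.31, adjusted p = 0.875).

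Over the 3 genes, 21 ratios between hairpins of a gene were compared, 7 in each comparison. The 3 ratios of Utp20 and the 3 of Pak1ip1 share hairpins, and any 2 of them fix the third. Counts of ratios are therefore not counts of separate results. Limma called 2 of 7 between culture and day 0, where 59.8% of all such pairs were called, 3 of 7 between lungs and day 0 (29.5%) and 3 of 7 between lungs and culture (23.4%). The libraries did not overlap for 4, 6 and 3 of 7, where this held for 68.2%, 54.6% and 40.5% of all pairs. By the exact two-sided permutation test over libraries none of the 21 passed after adjustment (lowest adjusted p = 0.15). With 3 libraries against 3 the smallest p that test allows is 0.1, and with 4 against 3 it is 0.0286.

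Some hairpins followed others closely over the libraries of their pool. As a description over libraries that share day 0, culture and lung differences, and with no test, the Pearson r of log2 CPM over 10 libraries was 0.87 between Utp20 TRCN0000341514 and TRCN0000341600, 0.60 for TRCN0000341514 with TRCN0000341529 and 0.60 for TRCN0000341529 with TRCN0000341600. Among the Pak1ip1 hairpins over 9 libraries it was 0.73 for TRCN0000009759 with TRCN0000009760, 0.51 for TRCN0000009758 with TRCN0000009759 and 0.034 for TRCN0000009758 with TRCN0000009760. The Znrd1 hairpins of pool 18 gave -0.15 over 9 libraries. The values for hairpins against other genes were picked as the 2 highest in the pool. They are therefore not comparable with those of the same-gene pairs, which were not picked. The 2 most alike were Ftsjd2 (0.95) and Ankrd17 (0.92) for TRCN0000341600, Zim2 (0.93) and Pcdh18 (0.90) for TRCN0000341514, and Pxdn (0.89) and Pcdh18 (0.73) for TRCN0000341529. For Pak1ip1 they were Spert (0.92) and Sf3b1 (0.86) for TRCN0000009759, Sf3b1 (0.81) and Spert (0.78) for TRCN0000009760, and Fbxo22 (0.86) and Lrrc57 (0.85) for TRCN0000009758. For Znrd1 they were Tmem45b and Iqgap1 (both 0.91) for TRCN0000304415, Dock8 (0.91) and Slc37a2 (0.86) for TRCN0000316014, and Tnfrsf25 (0.49) and Msi2 (0.48) for TRCN0000084728, whose best match was the loosest.

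Of a list of other genes of ribosome production and the ribosome, 4 had hairpins in the library. Wdr12 encodes a protein of the complex that processes large-subunit precursors, Wdr3 a protein of the small-subunit processome like Utp20, Mdn1 the large ATPase that remodels large-subunit precursors, and Mrps7 a protein of the mitochondrial small ribosomal subunit. The hairpins of Mdn1 had values at day 0 only and were not tested, which left 9 of the other genes. From day 0 to culture 2 of the 9 were called, beside 60.6% of all hairpins: 1 rose, Mrps7 TRCN0000104172 (log2 difference 1.05, SE 0.09, adjusted p = 8.49e-07), and 1 fell, Wdr3 TRCN0000104037 (-2.03, SE 0.48, adjusted p = 0.00351). The other 7 did not pass, among them all 3 of Wdr12 (-0.63 to -0.00047) and the other Wdr3 hairpins (0.22 and 0.26). None of the 9 was called by limma between lungs and day 0 or between lungs and culture, beside 33.8% and 24.9% of all hairpins.

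Of these 9, 8 lay in pool 10, whose lung library C held 1946 reads of its own pool's targeting hairpins among 5658230 reads. Without that library, 3 of the 9 were called between lungs and day 0, where 36.8% of all 891 hairpins were called in the same fit: Mrps7 TRCN0000104170 (0.78, adjusted p = 0.00341) and TRCN0000104172 (1.20, adjusted p = 0.00228) rose, and Wdr3 TRCN0000104037 fell (-2.21, SE 0.56, adjusted p = 0.0316). Between lungs and culture none was called then either, beside 26.1% of all 889 hairpins.

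As genes of neighbouring processes, Eif5b and Bzw2 of translation had 4 of 7 hairpins called between culture and day 0 (median log2 difference -1.49), 1 of 7 between lungs and day 0 (-0.65) and 2 of 7 between lungs and culture (-0.052). Eftud2 of the spliceosome and Nup133 of the nuclear pore had 2 of 6, 2 of 6 and 3 of 6 called in the same order, with medians of -0.19, -4.89 and -3.46. Over all hairpins 60.6%, 33.8% and 24.9% were called between culture and day 0, lungs and day 0, and lungs and culture. No difference between these genes and the 9 hairpins was tested.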

How the data were processed

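Hairpins were amplified from genomic DNA by PCR and sequenced, and BWA 0.5.9 is named in the submitters' processing notes. No source used here gives the counting or the scaling. The deposited tables hold a normalised signal per hairpin and library. In each, all values were whole multiples of the smallest within 0.01 reads (27241 of 27241, 100%), so reads were recovered by division, on the assumption that the smallest value of a table is 1 read, on which read numbers, intervals and the edgeR and DESeq2 fits rest. Most tables held too few low values for a separate check of that step. A hairpin with no row was set to 0. Of 158 samples 148 had values, and technical repeats were summed to 142 libraries.

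CPM used each pool's targeting reads with TMM factors (edgeR 4.0.16). Per-library CPM were scaled over all libraries of the pool, fits over the 2 groups compared. Differences were fitted per pool with limma 3.58.1 (R 4.3.3) on log2(CPM + 1), a scale that understates changes of low hairpins, with trend and robust settings, a minimum mean of 10 reads and Benjamini-Hochberg over all pools. Alternatives included edgeR and DESeq2 1.42.0 on the recovered reads. The fit of ratios was added after the data were seen. Fits were tested on simulated data, where false calls exceeded the threshold's nominal share, clearly so in both comparisons with lungs.

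Every member hairpin is named, with its 2 most alike hairpins against other genes. The members and lists were chosen with earlier results of these data known.

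Same-letter libraries did not deviate together in every pair. For lungs against day 0, culture against day 0 and lungs against culture, r was above 0.1 in 18 of 49, 29 of 59 and 24 of 54 pairs. The same letter was the best match in 16, 32 and 17 of these, in that order. Mean r was higher for same letters (0.038, 0.118 and 0.053) than for other letters (-0.021, -0.052 and -0.023). No source used here states a pairing, so the main fits did not take letters as pairs. Fits with the letter as a block are given below.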

Additional observations from a re-analysis of the deposited data

Results flagged for a closer look

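In a gap test of single libraries on log2(CPM + 1), over 11 groups of 4 to 6 libraries, culture library A of pools 9 and 10 stood apart for Mrps7 TRCN0000104170 (gap over range 0.678, at 101481 CPM against a group median of 30896 CPM) and for Mrps7 TRCN0000104172 (0.78, at 118600 CPM against 97119.6 CPM). The 6 culture libraries of pool 10 were 3 shared with pool 9 and 3 shared with pool 11. Wdr12 TRCN0000125626 was also highest in that library, at 102043 CPM with the next at 19934 CPM, but did not pass the gap test on the log2 scale. Chance gives about 1 such flag in 20 groups.

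Member hairpins also had reads in libraries of pools that do not hold them. In lung library 17A their share of reads was 0.0733% (95% exact interval 0.0708 to 0.0758) and in lung library 16D it was 0.0551% (0.0533 to 0.057), above the highest day 0 library (0.0116%). This held for 2 of 49 lung and 0 of 37 culture libraries. Znrd1 TRCN0000304415 led in both, with 2369 and 2109 reads, and the source of these reads was not tested.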

How the results depend on the processing

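Calls among the 9 hairpins are followed in brackets by calls over all hairpins in the same fit. Lungs against day 0 gave 2 calls (301), 1 with edgeR (279) and 1 with the replicate letter as a replicate block (231). It gave 3 with control scaling (234), DESeq2 (403) or all 3 groups in 1 fit (356). Without each library letter it gave 0 to 3 (148 to 388), the 0 without day 0 A (148), B (154) or C (160). Culture against day 0 gave 5 calls (573), 2 with all 3 groups in 1 fit (364) and 4 with edgeR (553) or the block (575). It gave 6 with control scaling (622) or DESeq2 (594), and 7 by total reads (615) or on deposited values (632). Without each letter it gave 3 to 5 (479 to 605). Lungs against culture gave 2 calls (221), 1 with control scaling (257) and 1 to 3 without each letter (142 to 249). Of 21 ratios, 13 did not overlap, beside 54.6%, 68.2% and 40.5% of all pairs in the 3 comparisons, and 13 to 16 without each letter, where fewer libraries make overlap less likely by construction. A letter was left out of every pool at once, so adjusted p-values also moved through other pools (Utp20 TRCN0000341514 in lungs, 0.0685 without day 0 C, a letter pool 19 lacks).

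The replicate block lost the calls of Pak1ip1 TRCN0000009759 in lungs (1.22, adjusted p = 0.0584) and Utp20 TRCN0000341529 in culture (-1.06, adjusted p = 0.122), and changed no other call of the 9. Over all hairpins it gave 231, 575 and 192 calls, against 301, 573 and 221.

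Signs turned for lungs against day 0 in Pak1ip1 TRCN0000009760 (0.062) and Znrd1 TRCN0000084728 (0.082) with control scaling, and for the latter with edgeR (0.81), DESeq2 (1.12) and without lungs A (1.10, range without each library -1.30 to 1.10). They turned for culture against day 0 in Pak1ip1 TRCN0000009758 (-0.43 by total reads, -0.33 on deposited values, -0.033 without day 0 A, range without each library to 0.10), in Znrd1 TRCN0000304415 (-0.12 and -0.083 likewise, -0.035 with control scaling and -0.081 without culture C, range without each library to 0.51) and in Znrd1 TRCN0000316014 (-0.062 by total reads, -0.020 on deposited values). For lungs against culture they turned in Utp20 TRCN0000341529 without lungs A (-0.031) or D (-0.21), range without each library to 0.99. The causes were not tested.

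The median of all hairpins moved with scaling: from day 0 to culture -0.10 by TMM, -0.64 by total reads, -0.89 on deposited values and -0.99 by control hairpins, with 47.5%, 26.5%, 20.6% and 16.1% of calls higher. From day 0 to lungs it was -0.13, -0.73, -0.82 and -0.57, with 43.5%, 24.4%, 30.5% and 46.2% higher, and between lungs and culture -0.11, -0.26, -0.13 and 0.30, with 46.6%, 44.6%, 60.6% and 82.5% higher. Calls over all hairpins ranged from 148 to 403 for lungs against day 0, from 364 to 632 for culture and from 142 to 311 for lungs against culture.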
